A study of Homo sapiens with 12 samples.

Results

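The interaction of acid with time asks, gene by gene, whether the effect of acid saline on a transcript at 6 h differed from its effect at 3 h. It is the log2 fold change of pH 6.0 over pH 7.4 at 6 h minus the same fold change at 3 h. The same number is the change from 3 h to 6 h in pH 6.0 saline minus the change from 3 h to 6 h in pH 7.4 saline. A positive value (called higher here) means that the acid effect was more positive at 6 h, and a negative value (called lower) that it was more negative. All 12 libraries of the series enter it, and it was tested for 15630 of the 48162 gene identifiers in the deposited table, those with enough counts.

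The cells were T84, an established human colon carcinoma line that is used as an intestinal epithelial monolayer. Their growth medium was exchanged for Hanks buffered saline and they were then lysed for RNA. The 4 groups were pH 7.4 for 3 h, pH 7.4 for 6 h, pH 6.0 for 3 h and pH 6.0 for 6 h, with 3 libraries each. No group stayed in growth medium, so the saline itself was common to all of them and 3 h was the earliest time. The labels name 1 cell line and no separate cultures for the libraries of a group, so each p-value speaks only of how far these libraries scatter, and that scatter may be technical.

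Hanks saline is a salt solution with glucose that, as usually made, holds no amino acids, serum or growth factors. Epithelial cells sense external protons through G protein-coupled receptors and ion channels, and their signals reach the nucleus through cAMP, calcium and MAP kinases, which switch on immediate early genes within minutes. Slower programmes include the heat shock response to damaged protein, the sterol response of the endoplasmic reticulum, and the ATF4 response to missing amino acids. In a design with a fixed start, any of these programmes can separate the pH values late because it moves in acid saline, because it moves in neutral saline, or both.

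Libraries held 13912532 to 24331032 counts, and mitochondrially encoded genes took 7.14% to 10.6% of them. All 16 epithelial markers were present in every library. Of 16 fibroblast, 20 leukocyte and 11 endothelial markers, 8, 17 and 8 stayed under 1 CPM (a count scaled to a common library size) in all libraries. The interaction was called for none of the markers of those 3 other cell types that could be tested (6, 4 and 4), and 2 leukocyte markers had no count at all. The summed fibroblast markers stood at 45.4 CPM in the second pH 7.4 library at 6 h and at 13.0 to 23.1 CPM in the others, and without that library 4403 interactions were called. In bulk RNA, fewer cells of a kind and less RNA per cell cannot be told apart.

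The acid effect differed between 3 h and 6 h in 4586 genes, 29.3% of those tested, at an adjusted p under 0.05. Adjusted p-values are those of edgeR's quasi-likelihood test with Benjamini-Hochberg adjustment over all tested genes, and values after ± are standard errors (SE) of log2 fold changes unless marked SD. The interaction was higher in 2045 genes (13.1%) and lower in 2541 (16.3%). It reached at least 2-fold in 733 genes, 240 higher and 493 lower. Most of these acid effects were late: 3155 of the 4586 passed for the acid effect at 6 h and not at 3 h, 691 passed at both times, 435 at 3 h and not at 6 h, and 305 at neither. For comparison, acid effects were called in 18.8% of all tested genes at 3 h (9.53% higher, 9.26% lower) and in 47% at 6 h (21.9% higher, 25.1% lower).

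A growing acid effect was the most frequent pattern that the test could place. The effect grew in 2482 genes (15.9% of those tested), which means that the 6 h effect passed and was the larger in size by a test. It faded in 162 genes (1.04%), where the 3 h effect passed and was the larger. It turned in 201 genes (1.29%), where both effects passed with opposite signs. The other 1741 genes (11.1%) had acid effects of opposite sign of which at most 1 passed, so their sizes could not be ranked. Among genes that grew, 1035 had a higher and 1447 a lower interaction. Most faded and turned effects were positive at 3 h: 122 of the 162 faded and 155 of the 201 turned genes had a lower interaction. From 3 h to 6 h, the median change of the 122 was 0.42 at pH 7.4 and -0.13 at pH 6.0. That of the 155 was 0.59 and -0.21, so levels in neutral saline moved up as well. The counts of faded and turned genes rest on single libraries at 3 h. The 201 turned genes became 49 or 50 without the third or second pH 6.0 library at 3 h, 54 or 107 without the first or the third pH 7.4 library, and 455 or 600 without the second pH 7.4 or the first pH 6.0 library. The 162 faded genes became 67 or 69 without the first pH 7.4 or second pH 6.0 library at 3 h, and 325 or 353 without the second pH 7.4 or first pH 6.0 library. Leaving out the third pH 6.0 library at 3 h gave 92 faded genes. Each 6 h library but the second pH 7.4 one, left out singly, gave 94 to 101 faded genes, and the first or the third pH 6.0 library at 6 h gave 133 or 126 turned genes.

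**Figure D1:**
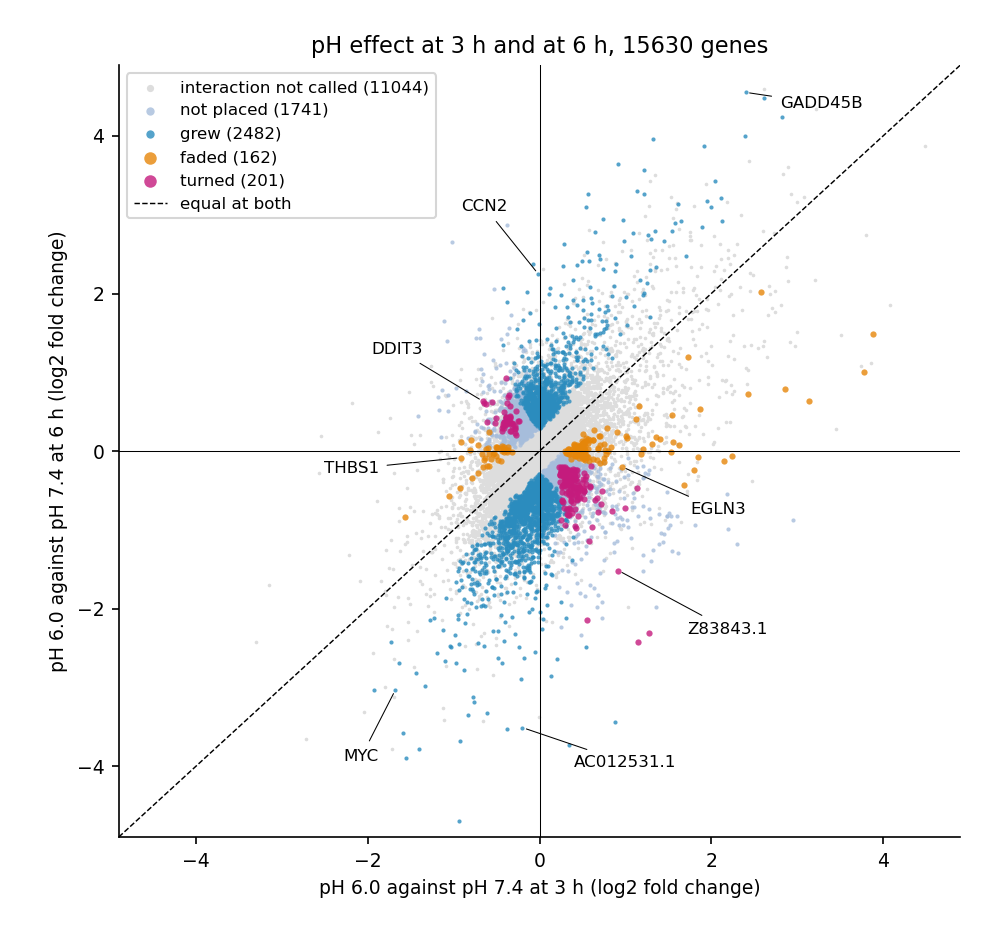
Acid effect at 3 h (x axis) and at 6 h (y axis) as log2 fold changes of pH 6.0 over pH 7.4, with 1 point per tested gene, coloured by pattern. Genes that grew lie farther from 0 on the y axis than on the x axis, the 201 turned genes lie in the upper left and lower right, and 7 genes fall outside the axes.

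Each arm's own change with time was then read from the same fit. From 3 h to 6 h 31.6% of tested genes changed at pH 7.4 (17.2% higher, 14.4% lower) and 19.5% at pH 6.0 (8.64% higher, 10.9% lower). Among the 4586 interaction genes, 2375 changed with time at pH 7.4 and not at pH 6.0. The reverse held for 1067, and 512 changed in opposite directions. Another 148 changed the same way in both arms, and 484 in neither by the test. A test of which arm moved more placed 621 genes (3.97% of those tested) in the pH 6.0 arm and 1009 (6.46%) in the pH 7.4 arm, and could not place 2956. These contrasts share their 12 libraries, and choosing genes by the interaction favours arms that move apart.

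The arms differed in what they held. Where pH 6.0 moved more, 236 genes had a higher and 385 a lower interaction. The median time change of the 236 was 0.89 at pH 6.0 and 0.11 at pH 7.4, and that of the 385 was -0.78 and -0.02. Where pH 7.4 moved more, 779 of the 1009 genes had a lower interaction. Their median time change was 0.64 at pH 7.4 and 0.01 at pH 6.0, so levels went up in neutral saline and held in acid. The 230 higher genes of that arm fell at pH 7.4 by a median of 0.65 on the log2 scale with a median of 0 at pH 6.0. Leaving out single libraries gave 449 to 634 genes for the pH 6.0 arm and 683 to 1315 for the pH 7.4 arm.

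**Figure D2:**
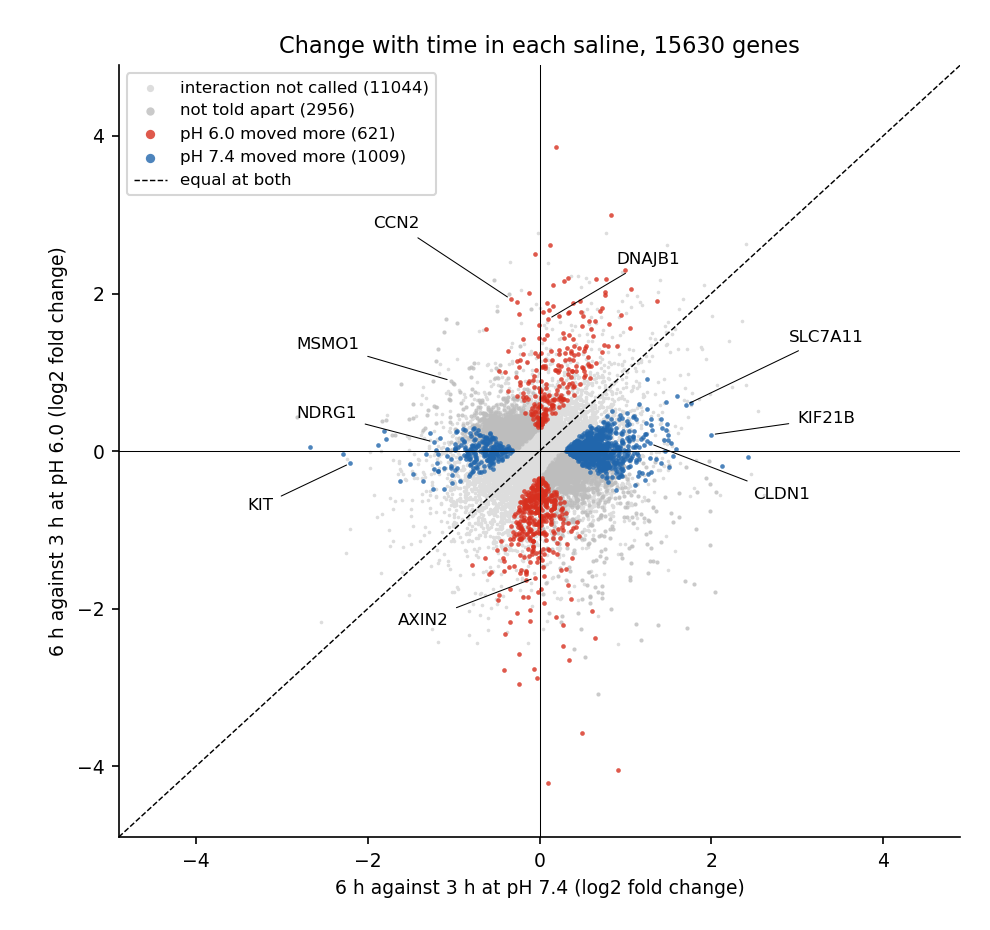
Change from 3 h to 6 h as a log2 fold change at pH 7.4 (x axis) and at pH 6.0 (y axis), with 1 point per tested gene, coloured by the arm that moved more. The 621 genes of the pH 6.0 arm spread along the y axis, the 1009 of the pH 7.4 arm spread along the x axis, and 1 gene falls outside the axes.

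The pH 6.0 arm held the strongest late increases. CCN2 (ENSG00000118523), which encodes a matricellular protein, stood at 35.3, 40.5 and 40.2 CPM at 3 h and 30.9, 30.5 and 30.6 CPM at 6 h in pH 7.4 saline and at 43.3, 37.4 and 34 CPM at 3 h and 135, 129 and 172 CPM at 6 h in pH 6.0 saline. The 3 acid libraries at 6 h stood above all 9 others, which overlapped across pH at 3 h. Its interaction was 2.26 ± 0.15 (adjusted p = 1.91e-09), made of an acid effect of -0.014 at 3 h and 2.25 at 6 h. GADD45B (ENSG00000099860), a stress sensor upstream of p38 and JNK kinases, stood at 6.92, 6.42 and 5.69 CPM at 3 h and 4.88, 5.42 and 5.65 CPM at 6 h at pH 7.4 and at 39.3, 30.6 and 30.9 CPM at 3 h and 116, 126 and 133 CPM at 6 h at pH 6.0. It was already high in acid at 3 h and higher at 6 h, while the neutral libraries of both times lay side by side. Its acid effect grew from 2.4 to 4.55, an interaction of 2.16 ± 0.17 (adjusted p = 2.95e-08).

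Further genes of this arm rose late, from early acid effects of differing size. SERTAD1, a regulator of CDK4, stood at 21.2, 17.2 and 18.8 CPM at 3 h and 20.6, 29 and 20.4 CPM at 6 h at pH 7.4 and at 18.5, 14.4 and 19.9 CPM at 3 h and 75, 82.3 and 79.5 CPM at 6 h at pH 6.0. The 6 h acid libraries stood above all others, and the pH values overlapped at 3 h. The interaction was 1.87 ± 0.19 (adjusted p = 8.97e-07). CD83, a membrane protein of the immunoglobulin superfamily, followed with 2.14 ± 0.26 (adjusted p = 6.52e-06). RND1, an atypical small GTPase, had 1.96 ± 0.36 (adjusted p = 0.000427), from acid effects of 1.91 and 3.88.

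Immediate early genes made up a large group here: of 32 tested members, 21 had a higher and 3 a lower interaction, with a median of 0.62 beside -0.03 over all tested genes. In 22 of the 24 called members the pH 6.0 arm moved more. With time at pH 6.0, 28 rose and 1 fell. At pH 7.4, 18 rose and none fell, so neutral saline moved many of them too, with a median of 0.37 against 1.14 at pH 6.0. NR4A1, an orphan nuclear receptor, stood at 42.7, 46.5 and 42.2 CPM at 3 h and 50, 62.2 and 52.9 CPM at 6 h in neutral saline and at 297, 338 and 294 CPM at 3 h and 960.1, 1088 and 1072 CPM at 6 h in acid. The acid libraries were above the neutral ones at both times and rose between them. Its acid effect grew from 2.82 to 4.24 (interaction 1.42 ± 0.13, adjusted p = 1.63e-07). FOSB, an AP-1 subunit, had an interaction of 1.87 ± 0.25 (adjusted p = 2.69e-05). Its relative FOS went against the list: the acid effect of 2.58 at 3 h and 2.02 at 6 h gave an interaction of -0.56 ± 0.12 (adjusted p = 0.00149), a partial fading from a high start. FOSL2 also went against it, at -0.64 ± 0.13 (adjusted p = 0.000763), with the pH 7.4 arm moving more, and at -0.31 after the length correction. The other lower member was MYC, at -1.35 with the pH 6.0 arm moving more, which is described below with the late decreases.

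**Figure D3:**
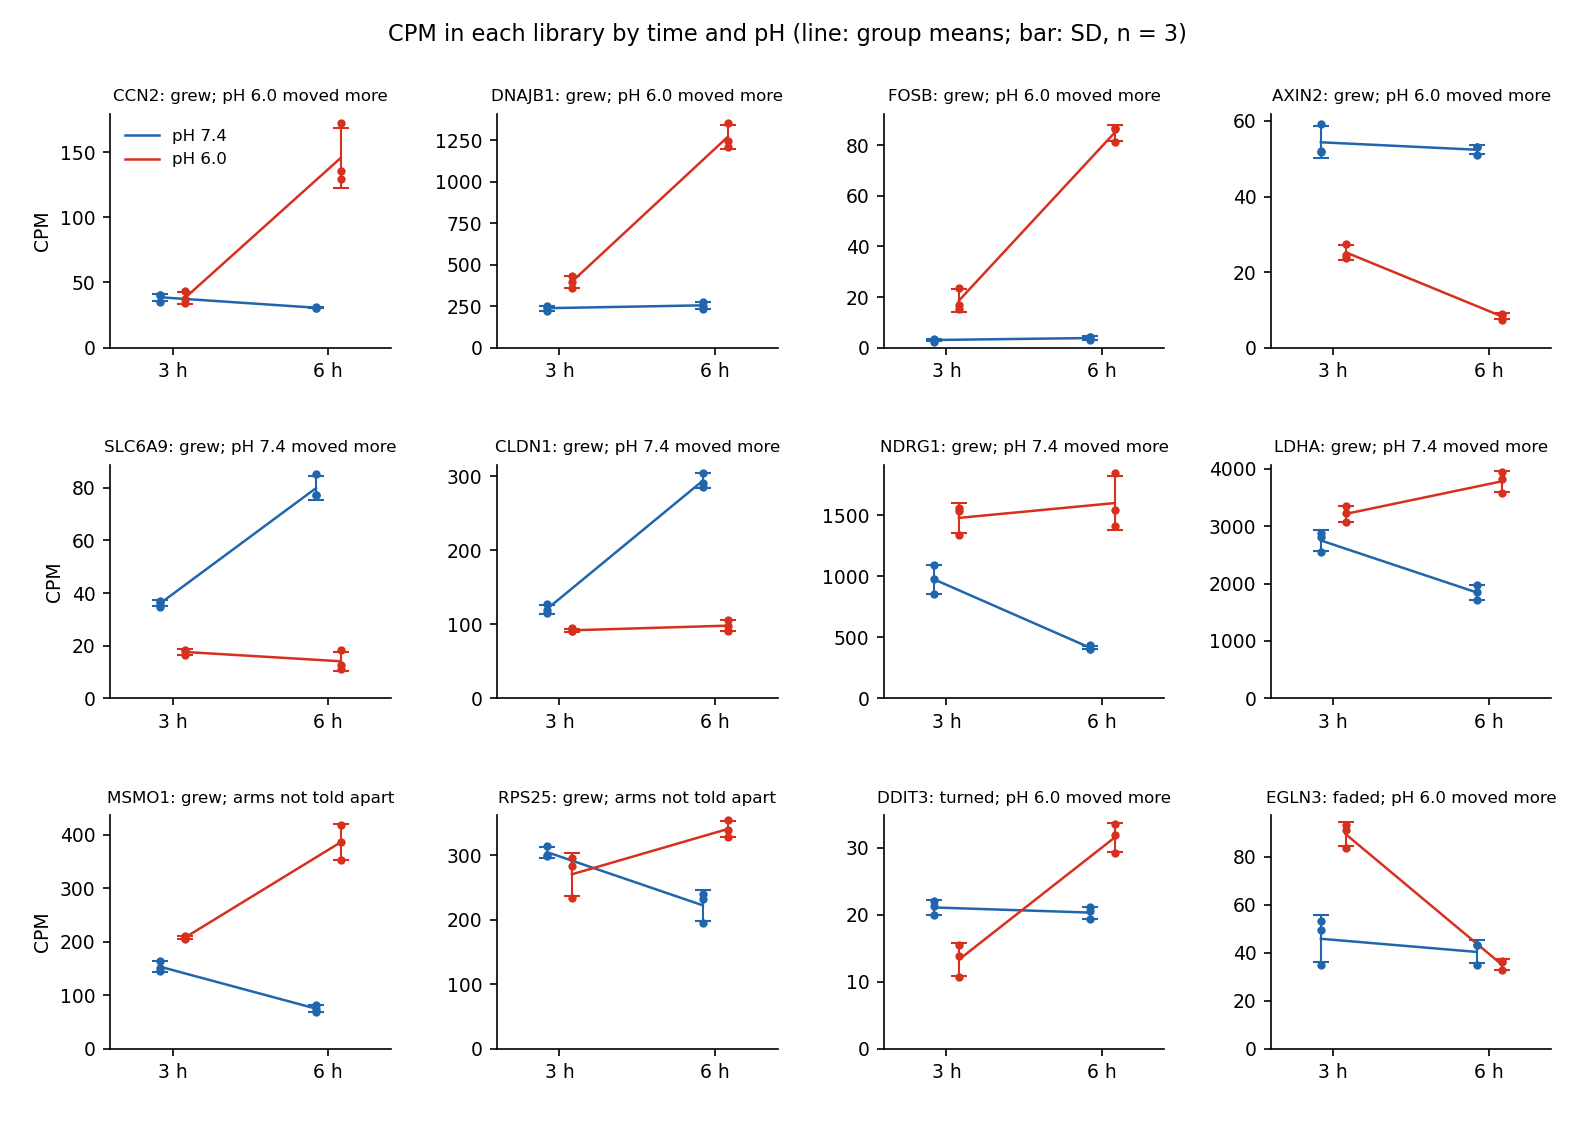
CPM of single genes in each library at 3 h and 6 h, by pH (points: libraries; lines: group means; bars: SD, n = 3). Each panel title gives the gene, its pattern and the arm that moved more, and the panels show late rises in acid, rises in neutral saline alone, and effects that faded or turned.

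Members of this list also showed rises that acid lacked at 3 h. MAFF, a small MAF transcription factor, stood at 57.6, 52 and 54.9 CPM at 3 h and 83.5, 95.7 and 89.9 CPM at 6 h at pH 7.4 and at 53.9, 50.7 and 53.5 CPM at 3 h and 180.2, 193 and 169.6 CPM at 6 h at pH 6.0. The pH values overlapped at 3 h and separated at 6 h, when both had risen. The acid effect went from -0.057 to 1.01 (interaction 1.07 ± 0.11, adjusted p = 1.17e-06). CCN1, a relative of CCN2, did likewise, from -0.0046 to 1.61 (interaction 1.61 ± 0.19, adjusted p = 4.54e-06).

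The cAMP and CREB targets, which include part of the same genes, had 7 higher and 4 lower interactions among 16 tested, with the pH 6.0 arm moving more in 8 of the 11. PCK1, which makes phosphoenolpyruvate in gluconeogenesis, stood at 35.4, 44.2 and 45.2 CPM at 3 h and 37, 39.2 and 47.3 CPM at 6 h in neutral saline and at 155, 163 and 163 CPM at 3 h and 339, 334 and 437 CPM at 6 h in acid. The neutral libraries of both times overlapped, and the acid libraries were above them at 3 h and higher still at 6 h. Its acid effect grew from 1.95 to 3.17 (interaction 1.22 ± 0.16, adjusted p = 2.05e-05). SIK1, a kinase that restrains CREB signalling, had 1.01 ± 0.14 (adjusted p = 2.82e-05). The clock gene PER1 had 1.01 ± 0.12 (adjusted p = 5.9e-06), while its partner PER2 went the other way, at -0.96 ± 0.14 (adjusted p = 3.31e-05).

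MAP kinase feedback inhibitors had 4 of 20 higher and 7 lower. The phosphatase genes DUSP5 (1.31 ± 0.14, adjusted p = 1.82e-06) and DUSP2 (1.39 ± 0.2, adjusted p = 3.57e-05) were higher, and for both the pH 6.0 arm moved more. SPRY1, a Sprouty inhibitor of receptor tyrosine kinase signalling, was lower through a fall at pH 6.0 (-1.22 ± 0.17, adjusted p = 3.55e-05). SPRED1, a Ras inhibitor, was lower through a rise at pH 7.4: 98.9, 96.4 and 102 CPM at 3 h and 204, 196 and 215 CPM at 6 h in neutral saline stood against 76.1, 90.8 and 88.5 CPM at 3 h and 79, 77.6 and 78.6 CPM at 6 h in acid. The 3 neutral libraries at 6 h were above all others. Its interaction was -1.17 ± 0.11 (adjusted p = 3.14e-07). The count of 7 fell to 4 without the third pH 7.4 library at 3 h, and a correction for transcript length and GC content brought SPRED1 to -0.72 (adjusted p = 5.46e-06).

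NF-kB targets had 13 higher and 1 lower interaction among 32, with the pH 6.0 arm moving more in 9. With time at pH 6.0, 23 of the 32 rose and none fell. The members with the smallest p were inhibitors of the pathway and a chemokine. TNFAIP3, a ubiquitin-editing inhibitor, stood at 67.2, 65.5 and 81.9 CPM at 3 h and 66.7, 62.5 and 74.2 CPM at 6 h in neutral saline and at 191, 178 and 178 CPM at 3 h and 340.1, 375 and 310.2 CPM at 6 h in acid. Levels were high in acid at 3 h, higher at 6 h, and the neutral times overlapped. Its interaction was 0.98 ± 0.13 (adjusted p = 1.78e-05). The inhibitors NFKBIE (1.38 ± 0.17, adjusted p = 9.1e-06) and NFKBIA (1.13 ± 0.14, adjusted p = 4.61e-06) and the chemokine CCL20 (1.13 ± 0.18, adjusted p = 0.000126) were higher too. The only lower member was CYLD, a deubiquitinase that restrains the pathway, at -0.51 ± 0.16 (adjusted p = 0.017). Its call was lost with the length correction (-0.02, adjusted p = 0.929), against a fold change of 1.2, and without the first pH 7.4 or the second pH 6.0 library at 3 h or the first pH 7.4 or the third pH 6.0 library at 6 h.

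Heat shock chaperones had 18 higher and 0 lower interactions among 30 tested, with a median of 0.56, and the pH 6.0 arm moved more in 13 of the 18. With time at pH 6.0, 21 of the 30 rose and 1 fell, and at pH 7.4, 8 rose and 3 fell. DNAJB1, the co-chaperone that brings clients to HSP70, stood at 224, 239.6 and 252 CPM at 3 h and 235, 277 and 254 CPM at 6 h in neutral saline and at 362, 434 and 399 CPM at 3 h and 1249, 1212 and 1353 CPM at 6 h in acid. The neutral times overlapped, acid was higher at 3 h, and the 6 h acid libraries were far above the rest. The acid effect grew from 0.74 to 2.31 (interaction 1.57 ± 0.12, adjusted p = 2.42e-08). HSPA1B, an inducible HSP70 with a near-identical copy whose reads the counting could split, went from 1.45 to 2.66 (interaction 1.22 ± 0.14, adjusted p = 3.73e-06). The mitochondrial co-chaperonin HSPE1 (1.42 ± 0.18, adjusted p = 1.15e-05) and AHSA1, an activator of HSP90 (0.96 ± 0.14, adjusted p = 3.05e-05), were higher as well. AHSA1 had no acid effect that passed at 3 h, at -0.052.

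The endoplasmic reticulum's unfolded protein response had 15 higher and 3 lower interactions among 30 genes, with a median of 0.33. With time at pH 7.4, 5 rose and 9 fell, and at pH 6.0, 9 rose and 1 fell. Of the called members 10 were not told apart, the pH 7.4 arm moved more in 3, and the pH 6.0 arm moved more in 5. The 5 became 3 with the length correction and without the first pH 7.4 or the second or the third pH 6.0 library at 3 h, or the third pH 7.4 library at 6 h. HERPUD1, which takes part in degradation of proteins from the reticulum, stood at 105, 104 and 101 CPM at 3 h and 102, 113 and 97.3 CPM at 6 h in neutral saline and at 97.5, 94 and 96.3 CPM at 3 h and 218, 228 and 234 CPM at 6 h in acid. The 6 h acid libraries were the ones that stood apart. Its acid effect went from -0.1 to 1.12 (interaction 1.23 ± 0.11, adjusted p = 8.29e-08). HSPA5, the main chaperone of the reticulum, did likewise, from 0.1 to 1.02 (interaction 0.92 ± 0.12, adjusted p = 1.02e-05). PPP1R15A, a phosphatase subunit that restarts translation after stress, was counted with the ATF4 targets below and not in this list. It stood at 129, 116 and 133 CPM at 3 h and 214, 205 and 207 CPM at 6 h in neutral saline and at 146, 133 and 149 CPM at 3 h and 467, 520.0 and 514 CPM at 6 h in acid. It rose in both salines and more in acid, and the pH values lay close together at 3 h. Its interaction was 1.08 ± 0.11 (adjusted p = 7.98e-07).

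Promoter letters of this arm are shown because its late risers include known targets of CREB and of heat shock factor. The genes printed were picked among those whose window holds the motif, so a match in each was fixed by that choice. The windows are the 250 bases before the annotated start of a gene (RefSeq, GRCh38.p14, plus strand for all 3 shown), read for 10907 tested genes with an entry. The capitals in the first pair mark the cAMP response element TGACGTCA, and in the third the heat shock element core GAANNTTC, both searched on both strands.
PPP1R15A, chr19:48872171-48872420: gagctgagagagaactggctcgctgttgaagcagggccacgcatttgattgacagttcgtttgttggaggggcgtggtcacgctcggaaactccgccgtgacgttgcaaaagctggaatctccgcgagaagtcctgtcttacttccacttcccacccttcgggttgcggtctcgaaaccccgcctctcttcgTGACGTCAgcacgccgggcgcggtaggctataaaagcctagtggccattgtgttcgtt
MAFF, chr22:38201744-38201993: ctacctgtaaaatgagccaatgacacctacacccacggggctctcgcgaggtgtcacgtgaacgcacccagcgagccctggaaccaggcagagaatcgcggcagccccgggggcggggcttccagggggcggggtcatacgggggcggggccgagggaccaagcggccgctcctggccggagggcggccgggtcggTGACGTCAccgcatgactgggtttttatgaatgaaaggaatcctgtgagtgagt
HSPA1B, chr6:31827488-31827737: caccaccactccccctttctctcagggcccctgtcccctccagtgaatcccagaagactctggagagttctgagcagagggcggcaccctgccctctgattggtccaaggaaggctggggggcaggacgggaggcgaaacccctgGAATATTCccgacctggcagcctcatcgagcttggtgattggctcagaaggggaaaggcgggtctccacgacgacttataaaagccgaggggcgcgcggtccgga
The match began 58 bases before the start of PPP1R15A, 54 before that of MAFF and 105 before that of HSPA1B. TGACGTCA was in 9 of 146 windows (6.16%) of genes that grew higher with the pH 6.0 arm moving more, beside 2.87% of tested genes and 1.77% of all windows in the table. GAANNTTC was in 17 of the 146 (11.6%), beside 4.02% and 5.85% in the same order, and in 10 of the 27 windows (37%) of the heat shock list. The other 3 motifs searched were the AP-1 site TGANTCA, in 12 of the 146 (8.22%, beside 4.03% and 6.6%), the sterol regulatory element TCACNCCAC, in 4 (2.74%, beside 0.853% and 0.875%), and the amino acid response element TGATGNAAN, in 2 (1.37%, beside 1.52% and 3.18%). These shares describe letters in a window and had no test.

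The same arm held the late decreases. MYC, a growth-promoting transcription factor, stood at 194, 186 and 200.5 CPM at 3 h and 198, 204 and 199 CPM at 6 h in neutral saline and at 71.8, 50.8 and 58 CPM at 3 h and 22.9, 26.2 and 24.3 CPM at 6 h in acid. Neutral times overlapped, and acid libraries were low at 3 h and lower at 6 h. Its acid effect grew from -1.68 to -3.03 (interaction -1.35 ± 0.14, adjusted p = 7.82e-07). AXIN2, a feedback inhibitor and target of Wnt signalling, stood at 51.7, 59.2 and 52.1 CPM at 3 h and 51, 53 and 53.2 CPM at 6 h in neutral saline and at 24.5, 23.7 and 27.5 CPM at 3 h and 8.82, 7.42 and 8.72 CPM at 6 h in acid. The order of the groups was the same as for MYC. Its interaction was -1.55 ± 0.14 (adjusted p = 1.84e-07). Of 26 tested Wnt targets and stem cell genes 13 were lower and 0 higher, with the pH 6.0 arm moving more in 6 and the pH 7.4 arm in 4. The progenitor factor SOX9 belonged to the latter, with a time change of 0.87 at pH 7.4 and -0.18 at pH 6.0 (interaction -1.04 ± 0.11, adjusted p = 1.82e-06). Without the first pH 6.0 library at 6 h, the pH 6.0 arm held 3 of these genes.

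HOX cluster genes stood out among the most negative interactions, and the family was looked at after its values were seen. Of the 10 named genes with the most negative interaction, HOXB4, HOXB-AS3, HOXB3, HOXA-AS3 and HOXA6 lie in these clusters, which set positional identity along the body axis. Of 27 tested HOX protein genes 14 had a lower and none a higher interaction, with a median of -0.75. The pH 6.0 arm moved more in 7 of the 14, and 7 were not told apart, HOXB4 among them. With time at pH 6.0, 14 fell, and at pH 7.4, 5 rose and none fell. HOXB3 stood at 40.3, 56.5 and 42.7 CPM at 3 h and 55, 58.1 and 59 CPM at 6 h in neutral saline and at 31.6, 34.8 and 33.8 CPM at 3 h and 9.57, 11.9 and 13.9 CPM at 6 h in acid. The neutral times overlapped, and the acid libraries were below them at 3 h and lowest at 6 h. Its interaction was -1.81 ± 0.18 (adjusted p = 5.12e-07), beside -2.04 ± 0.28 for HOXB4 (adjusted p = 2.04e-05) and -1.74 ± 0.29 for HOXA6 (adjusted p = 0.000189). Neighbours in a cluster overlap each other's exons here, so these are not separate observations.

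Of 34 interferon-stimulated genes 16 were lower, 6 higher and 12 not called. IFIT5, an RNA-binding antiviral protein, stood at 79.5, 77.6 and 88.9 CPM at 3 h and 91.3, 78 and 89.3 CPM at 6 h in neutral saline and at 58.4, 69 and 65.8 CPM at 3 h and 29.8, 31.1 and 31.9 CPM at 6 h in acid. Neutral times overlapped, and the acid libraries were below them at 3 h and lowest at 6 h. Its interaction was -1.13 ± 0.13 (adjusted p = 2.21e-06), with IFIT3 at -0.9 ± 0.11 (adjusted p = 6.17e-06) and the RNA sensor RIGI at -0.89 ± 0.11 (adjusted p = 9.44e-06). The exonuclease ISG20 was among the 6 higher members, at 0.83 ± 0.19 (adjusted p = 0.00237). The ubiquitin-like ISG15 was too (0.73 ± 0.23, adjusted p = 0.03), but lost its call in 8 alternatives: with the length correction (0.43, adjusted p = 0.0636), against a fold change of 1.2, without the first pH 7.4 or the third pH 6.0 library at 3 h, and without the first or the third pH 7.4 or the second or the third pH 6.0 library at 6 h. After the length correction 2 members were higher and 18 lower. The pH 6.0 arm moved more in 5 members, and in 9 with total counts. The pH 7.4 arm moved more in 3, and 14 were not told apart, RIGI among them. With time at pH 7.4, 13 of the 34 rose and 5 fell, and at pH 6.0, 2 rose and 12 fell.

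In the pH 7.4 arm, amino acid uptake was the list with the highest share of lower members. Of 23 tested amino acid transporters 12 had a lower and 3 a higher interaction, with a median of -0.56, and the pH 7.4 arm moved more in 13 of the 15. With time in neutral saline 14 rose and 1 fell. In acid 3 rose and 1 fell. SLC6A9, a glycine transporter, stood at 37.1, 36.2 and 34.8 CPM at 3 h and 77.2, 85.1 and 77.2 CPM at 6 h in neutral saline and at 18, 16.4 and 18.4 CPM at 3 h and 12.7, 18.2 and 11.3 CPM at 6 h in acid. The neutral libraries were far higher at 6 h, while the acid libraries of the times overlapped below them. The acid effect grew from -1.03 to -2.49 (interaction -1.46 ± 0.17, adjusted p = 4.36e-06). SLC7A11, the cystine transporter, stood at 91.7, 99.1 and 104 CPM at 3 h and 313, 281 and 368 CPM at 6 h in neutral saline and at 57.2, 75 and 75.3 CPM at 3 h and 112, 108 and 92.1 CPM at 6 h in acid. It rose in both salines, and at 6 h the acid libraries were about where the neutral ones had been at 3 h. Its time change was 1.71 at pH 7.4 and 0.59 at pH 6.0 (interaction -1.12 ± 0.16, adjusted p = 4.1e-05).

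The glutamine transporter SLC38A1 (-1.01 ± 0.13, adjusted p = 8e-06) and the cationic amino acid transporter SLC7A1 (-0.97 ± 0.13, adjusted p = 1.34e-05) followed the same pattern as SLC6A9. Their time changes were 0.99 and 0.98 at pH 7.4 beside -0.025 and 0.017 at pH 6.0. SLC3A2, the heavy chain that carries several of these transporters to the membrane, went against the list. Its acid effect faded from -0.79 to -0.34 (interaction 0.45 ± 0.13, adjusted p = 0.00967), through a rise of 0.69 in acid. After the length correction it stood at 0.28. Long transcripts weigh on this group: after the length correction SLC7A11 stood at -0.55, SLC38A1 at -0.56 and SLC7A1 at -0.59, all still past the threshold, with 11 members lower and 1 higher.

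Targets of ATF4, the transcription factor of the integrated stress response, had 11 lower and 5 higher interactions among 33, and the pH 7.4 arm moved more in 11. They rose with time in both salines, 16 in each, with medians of 0.47 at pH 7.4 and 0.26 at pH 6.0. The 4 members with the smallest p did not move together: SLC7A11 was lower, while PPP1R15A, DDIT3 and DDIT4 were higher through the pH 6.0 arm. Without the first pH 6.0 library at 3 h, 8 members were higher. DDIT4, an inhibitor of mTORC1, stood at 268, 194 and 236 CPM at 3 h and 269, 284 and 266 CPM at 6 h in neutral saline and at 275, 220.2 and 264 CPM at 3 h and 569, 638 and 576 CPM at 6 h in acid. The 6 h acid libraries stood above all others, which overlapped. Its interaction was 1.0 ± 0.14 (adjusted p = 3.96e-05). Cytosolic aminoacyl-tRNA synthetases, which charge tRNAs and include ATF4 targets, had 8 lower and 2 higher interactions among 20, none with the pH 6.0 arm moving more. WARS1 for tryptophan had -0.48 ± 0.11 (adjusted p = 0.00229), EPRS1 for glutamate and proline had -0.52 ± 0.11 (adjusted p = 0.00167) and AARS1 for alanine had -0.63 ± 0.11 (adjusted p = 0.000199).

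FARSA, a subunit of the phenylalanine enzyme, went the other way (0.63 ± 0.12, adjusted p = 0.000669). The count of 8 lower synthetases fell to 5 in 6 of the alternatives, namely without the filter on low counts, without the third pH 7.4 library at 3 h, and without the first or the third pH 6.0 library at 3 h or the first or second at 6 h. The length correction brought the median of the synthetases from -0.22 to 0.02, EPRS1 to -0.28 and FARSA to 0.38.

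Junction genes followed the pH 7.4 arm as well. Of 24 tight junction genes 11 were lower and 3 higher, and the pH 7.4 arm moved more in 7. With time at pH 7.4, 13 rose and none fell, and at pH 6.0, 5 rose and 2 fell. CLDN1, a sealing claudin, stood at 127, 119.7 and 115 CPM at 3 h and 292, 286 and 305 CPM at 6 h in neutral saline and at 94.3, 90.6 and 90.7 CPM at 3 h and 97.2, 106 and 91 CPM at 6 h in acid. The neutral libraries at 6 h were above all others, and the acid times overlapped. The acid effect grew from -0.39 to -1.58 (interaction -1.19 ± 0.11, adjusted p = 1.64e-07). The scaffold TJP1 did likewise (-0.86 ± 0.12, adjusted p = 2.92e-05). CLDN4, another claudin, was higher through a rise in acid, with 1.17 at pH 6.0 and 0.34 at pH 7.4 (interaction 0.83 ± 0.13, adjusted p = 6.37e-05). The length correction brought TJP1 to -0.41 and the list median from -0.37 to -0.16.

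Receptors and ligands of the EGF family had 4 lower and 1 higher interaction among 8. EGFR, the receptor for epidermal growth factor, stood at 112, 156 and 143 CPM at 3 h and 232, 244 and 287 CPM at 6 h in neutral saline and at 136, 173 and 153 CPM at 3 h and 122, 136 and 123 CPM at 6 h in acid. The 6 h neutral libraries stood above the others, which overlapped. Its interaction was -1.17 ± 0.16 (adjusted p = 4.03e-05), and -0.63 after the length correction. ERBB3, a partner receptor, had -0.7 ± 0.13 (adjusted p = 0.000428, -0.41 after the correction). The ligand genes EREG (-0.56 ± 0.16, adjusted p = 0.0104) and TGFA (-0.42 ± 0.12, adjusted p = 0.0112) were lower too, and neither passed after the length correction (-0.34, adjusted p = 0.105, and -0.25, adjusted p = 0.0711).

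KIF21B, a kinesin motor, had one of the most negative interactions among genes in which the pH 7.4 arm moved more. It stood at 12.4, 16.5 and 14.8 CPM at 3 h and 52.3, 60.4 and 61.5 CPM at 6 h in neutral saline and at 11.3, 12.2 and 11.5 CPM at 3 h and 12, 16.4 and 11.7 CPM at 6 h in acid. Levels were low in 9 libraries that overlapped and high in the 3 neutral libraries at 6 h. Its interaction was -1.79 ± 0.19 (adjusted p = 8.97e-07). PTPN13, a tyrosine phosphatase, showed the same pattern (-1.62 ± 0.15, adjusted p = 3.93e-07). DST, which encodes a large cytoskeletal linker, had -1.57 ± 0.3 (adjusted p = 0.00328), and -0.67 after the length correction. The arm of DST held in 14 of the 20 alternatives, and was lost with total counts, without the filter, and without the first pH 6.0 library at 3 h, or the third pH 7.4, the first pH 6.0 or the third pH 6.0 library at 6 h. Autophagy machinery had 8 lower and 4 higher interactions among 32 (37.5% called, beside 29.3% of all tested genes). ULK1, the kinase that starts autophagy, rose by 0.7 in neutral saline against 0.066 in acid (interaction -0.63 ± 0.12, adjusted p = 0.000533). The count of 8 fell to 5 with the length correction and without the second pH 6.0 library at 6 h. The pH 7.4 arm moved more in 7, and in 3 or 4 with the correction, without the filter, and without the third pH 7.4, first pH 6.0 or second pH 6.0 library at 6 h, or the second or the third pH 6.0 library at 3 h.

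Glycolysis and glucose uptake genes had 17 higher and 0 lower interactions among 25, with the pH 7.4 arm moving more in 6, the pH 6.0 arm in none, and 11 not told apart. With time in neutral saline 16 fell and 2 rose, while in acid 3 rose and none fell. PFKFB4, which sets the level of an activator of glycolysis, stood at 25.1, 26 and 36.2 CPM at 3 h and 6.33, 8.91 and 8.38 CPM at 6 h in neutral saline and at 46.3, 64.2 and 60.3 CPM at 3 h and 50.1, 51.4 and 79 CPM at 6 h in acid. The neutral libraries at 6 h were below all others, and the acid times overlapped above. Its interaction was 1.96 ± 0.3 (adjusted p = 0.000625). LDHA, a lactate dehydrogenase subunit, stood at 2822, 2549 and 2889 CPM at 3 h and 1972, 1858 and 1710.0 CPM at 6 h in neutral saline and at 3349, 3073 and 3228 CPM at 3 h and 3944, 3588 and 3820.0 CPM at 6 h in acid. The pH values did not overlap at either time and were farther apart at 6 h. Its acid effect went from 0.22, which did not pass, to 1.03 (interaction 0.81 ± 0.12, adjusted p = 6.37e-05). The pH 7.4 arm moved more here, but that placement held in 10 of the 20 alternatives: it was lost with median-of-ratios factors and without any 1 of 9 libraries, those other than the second of each pH at 3 h and the first pH 7.4 library at 6 h.

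The mutase PGAM1 had an interaction of 1.05 ± 0.11 (adjusted p = 1.48e-06) and the isomerase TPI1 one of 0.84 ± 0.13 (adjusted p = 6.08e-05). SLC16A3, which exports lactate with protons, had a time change of -1.03 in neutral saline and -0.22 in acid (interaction 0.81 ± 0.15, adjusted p = 0.000415). Scaling by total counts instead gave 10 glycolysis genes in which the pH 7.4 arm moved more.

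Hypoxia-inducible factor (HIF) targets outside glycolysis were less uniform, with 9 higher and 3 lower among 27, and 15 higher after the length correction. NDRG1, a stress-induced differentiation gene, stood at 856, 976 and 1092 CPM at 3 h and 406, 407 and 433 CPM at 6 h in neutral saline and at 1338, 1558 and 1538 CPM at 3 h and 1540.0, 1415 and 1843 CPM at 6 h in acid. The neutral libraries at 6 h were lowest, those at 3 h next, and the acid times overlapped above them. Its interaction was 1.34 ± 0.14 (adjusted p = 1.31e-06). KIT, a receptor tyrosine kinase, stood at 3.03, 4.88 and 5.92 CPM at 3 h and 1.10, 0.644 and 1.22 CPM at 6 h in neutral saline and at 7.52, 11.7 and 12.6 CPM at 3 h and 11.5, 6.77 and 10.4 CPM at 6 h in acid. Its neutral libraries at 6 h were the lowest and the acid times overlapped. Its interaction was 2.05 ± 0.43 (adjusted p = 0.00209). The zinc transporter SLC39A2 had an interaction of 1.5 ± 0.21 (adjusted p = 4.19e-05). That of the mitochondrial adenylate kinase AK4 was 1.28 ± 0.22 (adjusted p = 0.000189). With KIT, PFKFB4 and NDRG1, they held the 5 largest positive interactions among named genes in which the neutral arm moved more.

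Several groups parted because both arms moved, in opposite directions. Cholesterol synthesis and sterol regulation had 20 higher and 1 lower interaction among 30, with a median of 0.61. With time at pH 7.4, 22 fell and 1 rose, and at pH 6.0, 14 rose and 1 fell. MSMO1, a sterol demethylation enzyme, stood at 150.5, 164 and 145 CPM at 3 h and 69.3, 81.3 and 74.5 CPM at 6 h in neutral saline and at 206, 208 and 209.9 CPM at 3 h and 387, 352 and 418 CPM at 6 h in acid. No pair of groups overlapped: neutral fell, acid rose. The acid effect grew from 0.44 to 2.36 (interaction 1.92 ± 0.12, adjusted p = 9.95e-10). HMGCS1, which makes HMG-CoA, had time changes of -0.79 and 0.94 at pH 7.4 and 6.0 (interaction 1.73 ± 0.11, adjusted p = 1.91e-09). INSIG1, which holds the sterol sensor in the reticulum, had -0.93 and 0.75 (interaction 1.68 ± 0.12, adjusted p = 7.78e-09). With total counts the pH 7.4 arm moved more in 10 members in place of 6. The exception was ABCA1, which exports cholesterol, at -1.06 ± 0.24 (adjusted p = 0.00279), which did not pass after the length correction (-0.48, adjusted p = 0.0878).

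The largest share of called members was in the cytosolic ribosomal proteins, with 63 of 75 higher, 0 lower and a median of 0.72. The 63 had no arm that moved more: with time at pH 7.4, 59 fell and none rose, and at pH 6.0, 16 rose and none fell. The median acid effect of the 75 was -0.21 at 3 h and 0.5 at 6 h, and 50 of the 63 could not be placed as growing or fading. RPS25, of the small subunit, stood at 314, 298 and 301 CPM at 3 h and 232, 239.9 and 195 CPM at 6 h in neutral saline and at 296, 233 and 283 CPM at 3 h and 339, 328 and 354 CPM at 6 h in acid. The 6 h libraries did not overlap between the pH values, and those at 3 h lay close. Its time change was -0.45 at pH 7.4 and 0.33 at pH 6.0 (interaction 0.79 ± 0.13, adjusted p = 0.000153). Nuclear-encoded subunits of oxidative phosphorylation behaved alike, with 41 of 62 higher and 0 lower. NDUFB10, of complex I, had -0.73 and 0.34 (interaction 1.07 ± 0.19, adjusted p = 0.000469). The mitochondrially encoded mRNAs of the same complexes had 0 called of 13, with a median of -0.24, and 0 to 2 in the alternatives. The count of 41 fell to 25 without the first pH 7.4 library at 3 h.

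Small nucleolar RNA host genes, many of which start with the oligopyrimidine tract of ribosomal protein mRNAs, had 12 of 18 higher and 0 lower. SNHG12 led them (1.56 ± 0.25, adjusted p = 0.000104) and shares exons with the small nucleolar RNAs it hosts. The 12 became 7 without the first pH 7.4 or the third pH 6.0 library at 3 h, or without the third pH 7.4 or second pH 6.0 library at 6 h. G1/S and replication genes had 18 of 34 higher and 2 lower, with 23 that fell and 0 that rose with time in neutral saline. The pH 7.4 arm moved more in 7 of them, in 12 with total counts and in 4 without the third pH 7.4 library at 6 h. GINS2, of the replicative helicase, had a time change of -0.84 at pH 7.4 and 0.0044 at pH 6.0 (interaction 0.85 ± 0.16, adjusted p = 0.000456). Splicing regulators had 14 of 28 higher and 2 lower, led by the kinase CLK1, which rose in acid (0.84) and did not pass in neutral saline (-0.23, interaction 1.06 ± 0.13, adjusted p = 9.44e-06).

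**Figure D4:**
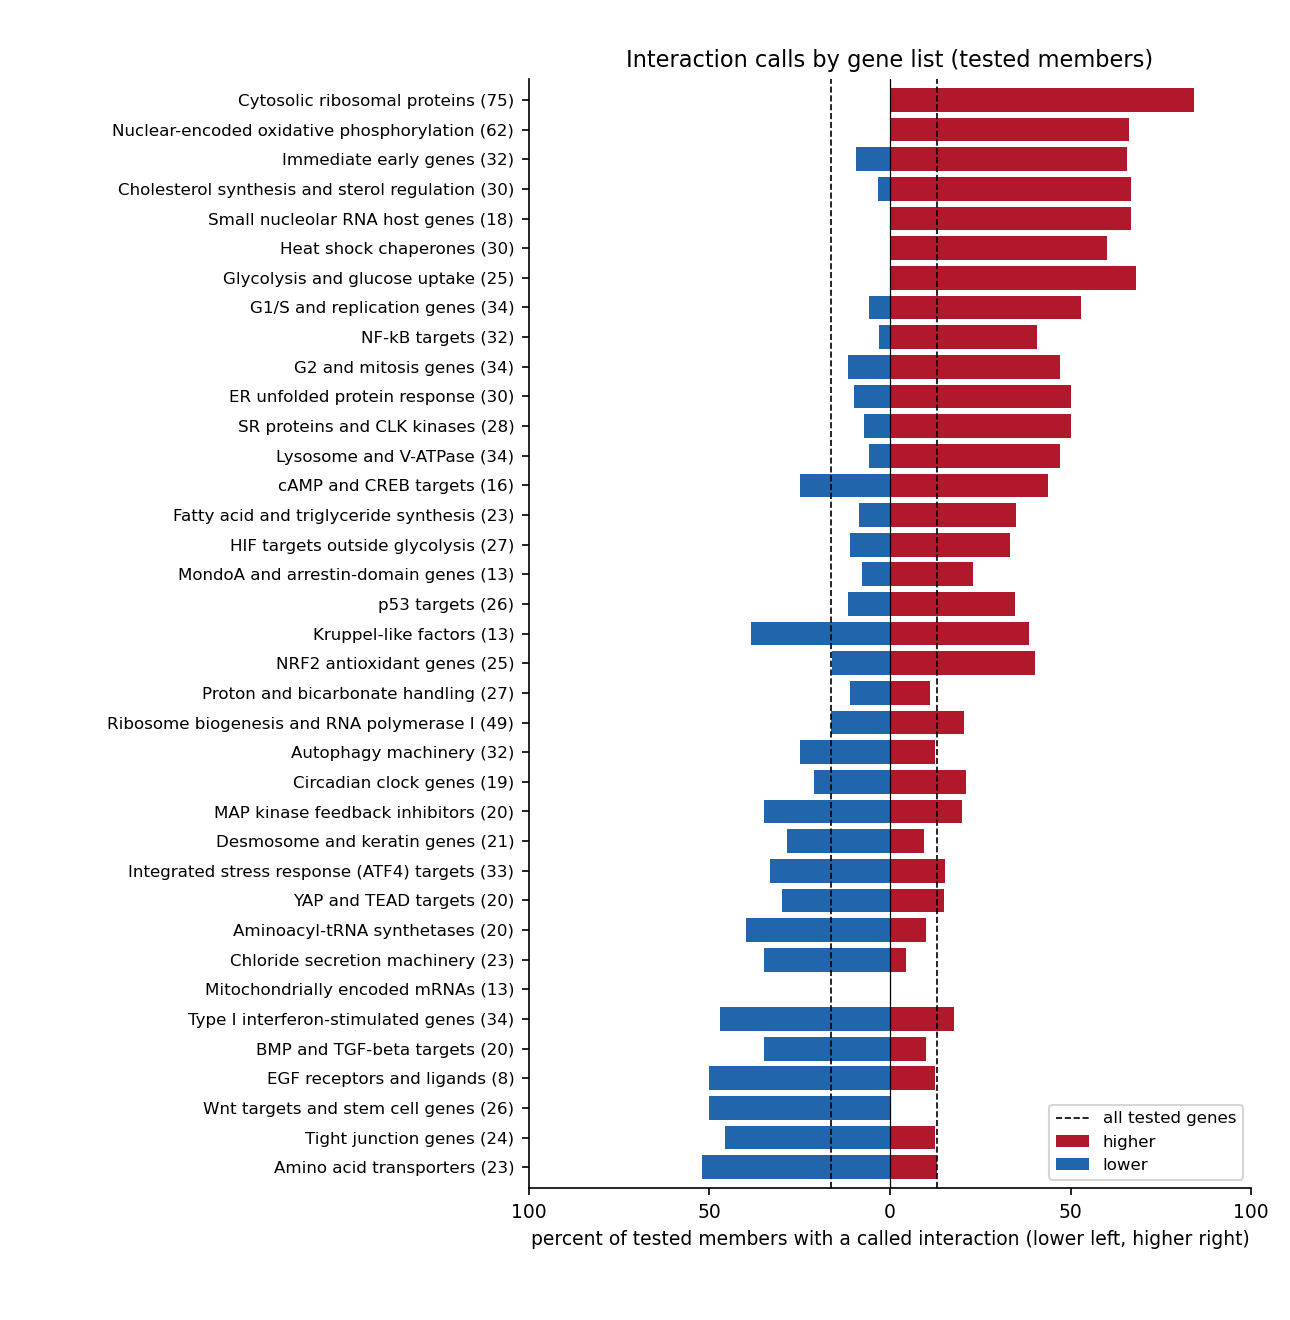
Percent of tested members of each gene list with a called interaction, lower to the left and higher to the right (number tested in brackets; dashed lines: all tested genes, 16.3% lower and 13.1% higher). Ribosomal proteins reach farthest to the right, and amino acid transporters, with 12 of 23, reach farthest to the left.

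**Figure D5:**
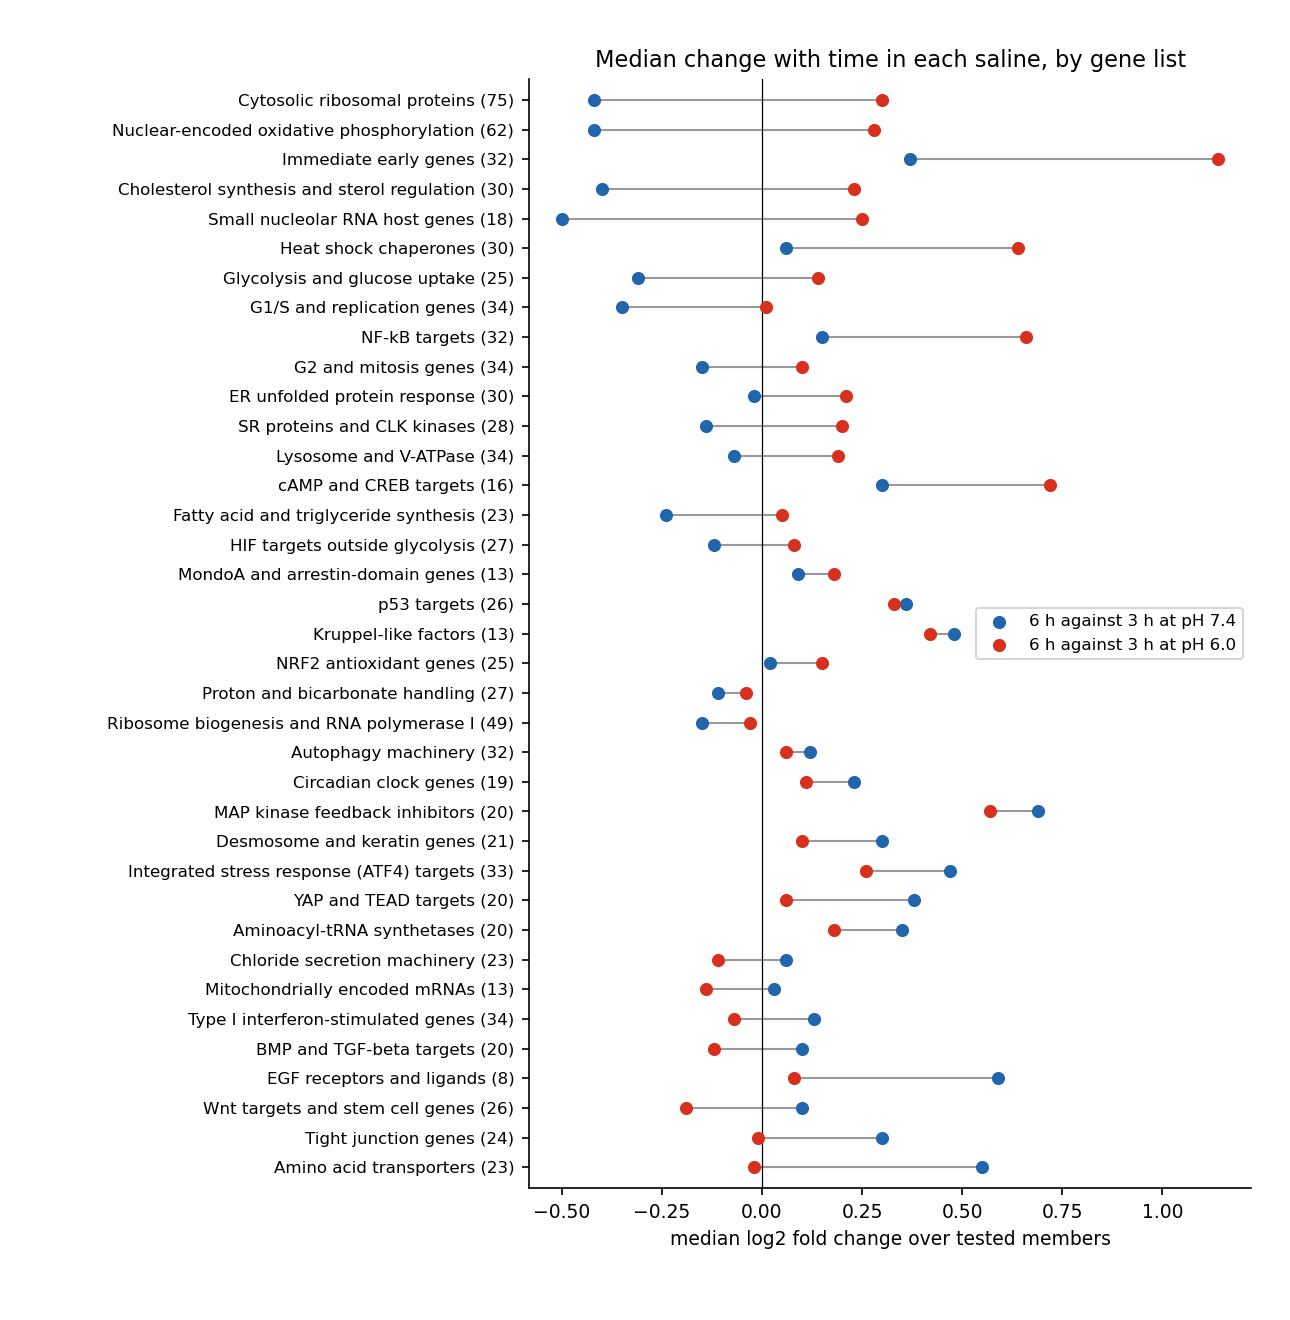
Median log2 change from 3 h to 6 h over the tested members of each list, at pH 7.4 (blue) and pH 6.0 (red), in the order of the median interaction. Immediate early, NF-kB and heat shock lists part through the pH 6.0 point, amino acid transporters and tight junction genes through the pH 7.4 point, and sterol and ribosomal protein lists through both.

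Faded effects were early responses that were smaller at 6 h, and some, such as that of FOS, stayed large. EGLN3, a HIF prolyl hydroxylase and HIF target, stood at 53.3, 34.9 and 49.3 CPM at 3 h and 43.1, 43.1 and 34.8 CPM at 6 h in neutral saline and at 83.8, 91.2 and 93 CPM at 3 h and 36.8, 32.6 and 36.1 CPM at 6 h in acid. The 3 h acid libraries stood above all others, which overlapped. An acid effect of 0.96 at 3 h became -0.2 (interaction -1.16 ± 0.17, adjusted p = 9.3e-05), through a fall at pH 6.0 of -1.35. CDX2, the intestinal identity factor, stood at 179, 153 and 179.8 CPM at 3 h and 97.5, 105 and 95.6 CPM at 6 h in neutral saline and at 279, 299.8 and 284 CPM at 3 h and 96.3, 99.5 and 121 CPM at 6 h in acid. Acid libraries were high at 3 h, both salines fell, and the pH values overlapped at 6 h. Its interaction was -0.66 ± 0.13 (adjusted p = 0.000583). The pseudogene AL359955.1 had an early acid effect of 2.15 and a late one of -0.13 (interaction -2.28 ± 0.3, adjusted p = 1.73e-05). MED12, a Mediator subunit (-0.78 ± 0.14, adjusted p = 0.000252), and BCOR, a corepressor (-0.71 ± 0.13, adjusted p = 0.000386), had positive early acid effects that faded too. They stood at -0.45 and -0.39 after the length correction.

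Negative early acid effects faded as well. ODC1, the first enzyme of polyamine synthesis, stood at 103, 87.7 and 79.3 CPM at 3 h and 62.3, 58 and 55.2 CPM at 6 h in neutral saline and at 62, 52.3 and 50.4 CPM at 3 h and 59.7, 63 and 62.4 CPM at 6 h in acid. The 3 h neutral libraries stood above the others, which overlapped, so neutral cells came down to the acid level. Its interaction was 0.79 ± 0.14 (adjusted p = 0.000275). THBS1, a matricellular protein, stood at 35.4, 44.1 and 51.1 CPM at 3 h and 48.9, 47 and 59.4 CPM at 6 h in neutral saline and at 19.8, 26.8 and 22.6 CPM at 3 h and 46.1, 48.8 and 51.6 CPM at 6 h in acid. Here the 3 h acid libraries stood below the others and came up. Its interaction was 0.83 ± 0.18 (adjusted p = 0.00209), and 1.28 after the length correction. EGLN3, CDX2, AL359955.1, ODC1, THBS1, MED12 and BCOR were placed as faded in all 20 alternatives. The nucleotidase NT5C (0.93 ± 0.21, 0.58 after the correction) was so in 19 and C19orf25 (0.55 ± 0.14, 0.34 after it) in 17. NT5C lost the placement without the first pH 6.0 library at 6 h, and C19orf25 without the first or the third and with the correction. RASSF7 (0.82 ± 0.14, adjusted p = 0.000224, 0.51 after the correction) was so in 3, and each of 11 libraries removed it when left out.

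Turned effects were those with opposite acid effects at the 2 times. DDIT3, the stress transcription factor CHOP, stood at 21.3, 19.9 and 22.1 CPM at 3 h and 20.5, 21.1 and 19.4 CPM at 6 h in neutral saline and at 13.8, 10.7 and 15.4 CPM at 3 h and 29.2, 31.9 and 33.5 CPM at 6 h in acid. Neutral libraries overlapped, acid libraries were below them at 3 h and above them at 6 h. The acid effect turned from -0.66 to 0.63 (interaction 1.29 ± 0.16, adjusted p = 9.44e-06). RBM39, a splicing factor, stood at 363, 368 and 301 CPM at 3 h and 319.7, 312 and 310.3 CPM at 6 h in neutral saline and at 250.2, 247 and 278 CPM at 3 h and 423, 403 and 395 CPM at 6 h in acid. It showed the same order, with acid below at 3 h and above at 6 h. Its interaction was 0.79 ± 0.12 (adjusted p = 5.28e-05). In both genes the pH 6.0 arm moved more.

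Where the turn went from higher to lower, the pH 7.4 arm moved more in 4 of the 5 named genes. HAS3, a hyaluronan synthase, stood at 57.6, 52.6 and 53.7 CPM at 3 h and 95.5, 111 and 97.6 CPM at 6 h in neutral saline and at 90.3, 89.3 and 89 CPM at 3 h and 62.7, 62.3 and 65.5 CPM at 6 h in acid. Acid was above neutral at 3 h and below it at 6 h, without overlap. The acid effect turned from 0.71 to -0.68 (interaction -1.39 ± 0.11, adjusted p = 3.62e-08). TNS4, a focal adhesion protein, stood at 29.7, 24.3 and 26.3 CPM at 3 h and 76.4, 80.5 and 71.8 CPM at 6 h in neutral saline and at 36.3, 47.1 and 37 CPM at 3 h and 32.3, 36.1 and 35.6 CPM at 6 h in acid. The neutral libraries went from lowest to highest and the acid ones stayed in between. Its interaction was -1.71 ± 0.15 (adjusted p = 8.89e-08). RORA, a nuclear receptor of the circadian clock, turned from 0.84 to -0.76 (interaction -1.6 ± 0.16, adjusted p = 5.08e-07, -1.0 after the length correction).

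The intronic transcript Z83843.1 had the largest turn among those named, with 11, 15.1 and 14.9 CPM at 3 h and 30.6, 31.2 and 35.7 CPM at 6 h in neutral saline and 21.1, 31.2 and 25.1 CPM at 3 h and 12.8, 10.7 and 10.6 CPM at 6 h in acid. The salines crossed, and the pH values did not overlap at either time. Its acid effect turned from 0.92 to -1.52 (interaction -2.43 ± 0.2, adjusted p = 7.94e-08). DDIT3, RBM39, HAS3, TNS4, RORA and Z83843.1 were placed as turned in all 20 alternatives. RSRP1 (1.31 ± 0.17), FAU (1.05 ± 0.15), SLBP (0.79 ± 0.12) and the integrin gene ITGA2 (-1.24 ± 0.13) were so in 16, 17, 16 and 15 of them. Each of these 4 lost that placement without the first pH 7.4 library at 3 h and without the second or the third pH 6.0 library at 3 h. RSRP1 lost it also without the second pH 7.4 library at 3 h, SLBP and ITGA2 without the third, and ITGA2 with the length correction (-0.81).

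Genes for proton and bicarbonate handling stayed near the background. Of 27 tested members 3 were higher and 3 lower (22.2%, beside 29.3% of all tested genes). SLC16A1, a monocarboxylate and proton cotransporter, was lower (-0.66 ± 0.11, adjusted p = 0.000125), opposite in sign to SLC16A3. MondoA and arrestin-domain genes had 3 higher and 1 lower among 13 (30.8%). Chloride secretion genes, the transport function for which T84 is used, had 8 of 23 lower and 1 higher (39.1%), led by the chloride-proton exchanger CLCN3 (-0.71 ± 0.14, adjusted p = 0.000619, -0.35 after the length correction).

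The remaining lists held members in both directions or smaller shares, beside 13.1% higher and 16.3% lower over all tested genes. Nearest to the 29.3% called over all tested genes were ribosome biogenesis (36.7% called), desmosome and keratin genes (38.1%) and clock genes (42.1%). G2 and mitosis genes had 16 of 34 higher and 4 lower, and 10 higher without the first pH 7.4 library at 3 h or the third at 6 h. Lysosome and V-ATPase genes had 16 of 34 higher and 2 lower, and 10 higher without the third pH 7.4 library at 6 h or the second or the third pH 6.0 library at 3 h. Fatty acid and triglyceride synthesis had 8 of 23 higher and 2 lower, and 5 higher without the third pH 6.0 library at 3 h. NRF2 antioxidant genes had 10 of 25 higher and 4 lower, and p53 targets 9 of 26 higher and 3 lower. Ribosome biogenesis genes had 10 of 49 higher and 8 lower, with 5 lower without the third pH 7.4 library at 3 h or the second pH 6.0 library at 6 h. The pH 6.0 arm moved more in 6 of them, and in 3 without the third pH 7.4 library at 3 h, the first pH 7.4 or the third pH 6.0 library at 6 h. BMP and TGF-beta targets had 7 of 20 lower and 2 higher, and YAP and TEAD targets 6 of 20 lower and 3 higher. In the YAP list the pH 7.4 arm moved more in 5, and in 3 with the length correction. Desmosome and keratin genes had 6 of 21 lower and 2 higher. Kruppel-like factors had 5 of 13 in each direction, with 3 lower after the length correction or without the first pH 6.0 library at 6 h, and clock genes 4 of 19 in each direction.

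A stricter test, against a fold change of 1.2 in place of 0, called 2357 genes, 968 higher and 1389 lower. The higher members became 11 in the heat shock list, 8 in glycolysis, 9 in the unfolded protein response, 22 in oxidative phosphorylation and 10 in G1/S genes. They became 5 in the lysosome list, 2 in fatty acid synthesis, 6 in small nucleolar RNA host genes, 8 in G2 and mitosis genes, 8 in splicing regulators, 6 each in NRF2 and ribosome biogenesis genes, 3 in Kruppel-like factors and 2 in interferon-stimulated genes. The lower members became 6 in the ATF4 list, 4 in autophagy, 5 in chloride secretion, 4 in ribosome biogenesis, and 3 each in the synthetases, MAP kinase feedback and Kruppel-like factors. Among the genes described, WARS1, EREG, TGFA, CYLD, ISG15 and SLC3A2 lost their call there. Amino acid transporters had 10 lower, ribosomal proteins 50 higher and sterol genes 16 higher under the same test.

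Transcript length moved with the interaction. Over deciles of tested genes by length, the median interaction was 0.35 in the second (median 1300 bases), where 28.7% of genes were called higher, and -0.49 in the tenth (7939 bases), where 55% were called lower. In the tenth decile the median time change was 0.35 at pH 7.4 and -0.13 at pH 6.0, and in the second -0.25 and 0.12. Turned genes with a lower interaction had a median length of 7362 bases and growing ones 4914, beside 2994.5 over all tested genes. Within single libraries, the rank correlation of a gene's deviation with its length ran from -0.27 to 0.27, also between libraries of 1 group. A fit with length and GC content as smooth terms for each library called 3729 genes, 2885 of them shared, and 53% of its calls were higher in place of 44.6%. It brought the tenth decile's median to -0.03. It kept 1741 of the 2482 genes as grown, 50 of the 162 as faded and 54 of the 201 as turned, with 486 of the 621 in the pH 6.0 arm and 529 of the 1009 in the pH 7.4 arm. Of 174 genes, those named by rule and the members that went against their list, 47 moved by over 1.5 times and 7 lost their call. The part of length in the results was not tested beyond this.

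CCN2, PFKFB4, HOXB4, HOXB-AS3, HOXB3, HOXA-AS3, HOXA6, THBS1, NT5C, C19orf25, DDIT3, RSRP1, FAU, HAS3, RORA, SLC39A2, PTPN13, NR4A1, PER1, EGFR, ERBB3, DDIT4, SLC7A11, FARSA, WARS1, SLC6A9, DNAJB1, HSPA1B, HSPE1, AHSA1, HMGCS1, TPI1, RPS25, AXIN2, TNFAIP3, SLC16A1, SLC16A3, PER2, GINS2 and SNHG12 overlap exons of other annotated genes (GENCODE 29). The counting's use of strand is not given in the sources used here, so their values are uncertain to that extent.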

How the data were processed

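RNA of 12 T84 libraries, 3 in each of 4 groups, was sequenced. The authors deposited raw counts per gene for every library, together with RPKM values and gene identifiers, in a table of 48162 identifiers. Per the submitters' processing notes STAR and CASAVA were used with the hg19 build. The sources used here do not name versions, the annotation or the counter. The authors' RPKM values served only to read each gene's length, and lengths so obtained reproduced 100% of them within a relative 1e-06. No pair of libraries within a group looked like a repeat of 1 library, with chi-square divided by its degrees of freedom at 5.4 to 19.5.

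The counts were fitted with edgeR 4.0.16 (R 4.3.3, limma 3.58.1), using TMM factors, filterByExpr and the robust quasi-likelihood F test on 1 model of the 4 groups, with 8 residual degrees of freedom and a biological coefficient of variation of 9.29%. Genes were called at an adjusted p under 0.05. CPM values are scaled to a common library size after TMM scaling. An arm was said to move more where a test of the sizes of the 2 time changes passed. The fit was tested on simulated data, in which 200 genes were given an interaction of at least 2-fold. These had an expected mean count of at least 100. It recovered 98.5% of them among 15268 genes, with 6 false calls. The simulated dispersion was the same for all genes and held no length trend, so recovery in the real libraries may be lower. Names, GC content and overlaps came from GENCODE release 29.

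The genes named were the 10 largest interactions of each direction with a mean count of at least 100, the 5 smallest p of each direction among faded and turned genes, the 5 largest of each direction in the pH 7.4 arm, up to 4 members of each list by p, and members that went against their list. The comparison, gene lists, markers and motifs were chosen with earlier results of these data known. The alternatives were DESeq2 1.42.0, median-of-ratios factors, total counts, no filter, at least 5 CPM in 3 libraries, the replicate number as a block, a test against a fold change of 1.2, smooth terms for length and GC content (5 degrees of freedom each), and each library left out.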

Additional observations from a re-analysis of the deposited data

Results flagged for a closer look

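The acid effects at 3 h and at 6 h differed, by the interaction test itself, in 4586 genes. Among the named genes whose effect had opposite signs at the 2 times, 5 went from lower to higher in acid. Their interactions on the log2 scale were 1.29 for DDIT3, 1.31 for RSRP1, 1.05 for FAU, 0.79 for RBM39 and 0.79 for SLBP. The other 5 went from higher to lower, with -1.39 for HAS3, -2.43 for Z83843.1, -1.71 for TNS4, -1.6 for RORA and -1.24 for ITGA2. Effects at both times passed their own test in each of these 10 genes.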

How the results depend on the processing

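Of 174 genes (those named by rule and the members that went against their list) none changed sign in any of the 20 alternatives, and 158 kept their call in every one. Lower calls outnumbered higher ones (2541 to 2045), which turned with no filter (2199 to 2308), with the length and GC correction (1754 to 1975), and without the third pH 7.4 (2019 to 2033) or the first pH 6.0 library at 3 h (2489 to 2647). DESeq2 called 4576 interactions, median-of-ratios factors 4578 and total counts 4556. With single libraries left out, the calls ranged from 3457 to 5136 in all, 1479 to 2647 higher and 1970 to 2681 lower. Grown effects then ranged from 1880 to 2311, faded from 67 to 353 and turned from 49 to 600, and the arm that moved more was pH 6.0 in 449 to 634 and pH 7.4 in 683 to 1315. Turned genes numbered 390 with no filter, 328 with the replicate block and 123 with the length and GC correction. The test against a fold change of 1.2 gave 2357 calls, 968 higher and 1389 lower, with 1448 grown, 49 faded, and 375 and 581 in the pH 6.0 and pH 7.4 arms.

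Deviations of same-numbered libraries correlated at -0.114 to 0.209 (median 0.027), with 2 of 18 pairs over 0.1. Differently numbered libraries ran from -0.172 to 0.141 (median -0.02), with 3 of 36 over 0.1. Across pH at 3 h, same-numbered pairs stood at 0.209, 0.082 and 0.044 and the others at -0.135 to 0.057. At 6 h they stood at 0.063, 0.136 and -0.028, and the others at -0.116 to 0.053. Whether the numbers mark pairs was not tested. The fit with the replicate block called 4774 interactions. The number of turned and faded genes depends on single libraries at 3 h more than the number of calls does, and which genes belong there is accordingly less certain.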
